A study of Mus musculus with 9 samples.

Results

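Integrins are the receptors with which a cell holds on to the matrix around it, and laminins are the matrix proteins of the basement membrane on which mammary epithelium sits. The genes described here are the mouse integrin alpha genes, integrin beta genes and laminin chain genes, chosen by symbol alone: 18 Itga, 8 Itgb and 11 Lama, Lamb and Lamc genes, 37 of the 54532 genes in the deposited count table. RNA was sequenced from HC11, a mouse mammary epithelial cell line labelled as strain C57BL/6, in 3 groups of 3 libraries. Ctrl cells were untreated, and EpPT1 and EpPT2 cells were exposed to light of 660 nm, where the labels give EpPT1 10 J/cm2 and EpPT2 20 J/cm2. The treatment protocol instead gives 0.5 and 1 J/cm2 from a laser of 10 mW, so the groups are called by name. All 3 groups share the line, a medium of DMEM with serum and the culture dish format. It is a single cell line, and the libraries of a group are not said to come from separate cultures, so p-values here rest on a spread between libraries that may be technical.

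An integrin is a pair of 1 alpha and 1 beta chain, and the pair decides which matrix protein it binds. The chains α3, α6 and α7 pair with β1 to bind laminin, α6 also pairs with β4 in hemidesmosomes, α1, α2, α10 and α11 pair with β1 to bind collagen, and α5, α8, αv and αIIb bind proteins with the Arg-Gly-Asp motif, such as fibronectin. A laminin is a trimer of 1 alpha, 1 beta and 1 gamma chain, named after its chains. In the mammary gland, adhesion to laminin through β1 integrins is known to be needed for polarity and for the response to lactogenic hormones.

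Of the 37 genes, 35 had at least 1 count, 24 were abundant enough to be tested (12 alpha, 5 beta and 7 laminin genes), and 13 were not. The last gene past the filter on low counts was Itga1, with 198 counts over the 9 libraries, and the first below it was Itga11, with 50. The untested leukocyte chains Itgal and Itgax had 20 and 14 counts in all, and Itga8 and Itga9 2 each. Members at 0 in all libraries were Itgad and Lama1. In CPM, which are counts relative to the library total, a count of 0 allows a level of 0.174 to 0.206 depending on the library (3 counts), a limit that covers counting error only. All levels are CPM scaled by TMM unless they are said to be per kb of gene length, the scale used to compare genes.

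Libraries held 14549787 to 17228929 counts. A chi-square per gene, averaged over the tested genes, measured how far the counts of 2 libraries differed. Some libraries lay closest to one of another group, with 5.66 between EpPT1 2 and EpPT2 1 and 7.87 between EpPT1 3 and EpPT2 2. Within groups it was 77.0 between EpPT1 1 and EpPT1 2 and 116 between EpPT2 1 and EpPT2 2, but 4.95 between EpPT2 2 and EpPT2 3. Mitochondrial genes took 6.06% to 7.48% of the counts in Ctrl 3, EpPT1 3, EpPT2 2 and EpPT2 3, and 2.74% to 3.62% in the other 5 libraries. A slope on gene GC content was fitted to the expression in each library relative to each gene's mean over the 9 libraries. Its sign is therefore relative to these libraries. The slope was negative in Ctrl 1, Ctrl 2, Ctrl 3 and EpPT1 1 and positive in the other 5. It was thus negative in every Ctrl and positive in every EpPT2 library, so for EpPT2 against Ctrl the GC slope and the group cannot be told apart by design. Luminal markers were present, with summed levels of 1761 to 2941 CPM over 9 markers, although Cdh1, which encodes E-cadherin, had only 0.23 to 0.78 CPM. Of the basal and myoepithelial markers, 2 of 8 were tested, Krt14 at 3.60 to 20.4 CPM and Krt5 at 0.34 to 3.04 CPM, while Trp63 reached 0.57 and Acta2 0.37 CPM at most. The sum of the 8 was 21.8 to 24.5 CPM in the 4 libraries of high mitochondrial share and 5.34 to 9.99 CPM in the other 5. In bulk RNA, fewer cells of a type and less RNA per cell cannot be told apart.

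Among the beta chains Itgb1 stood far above the others. It encodes β1, the common partner of the laminin, collagen and fibronectin receptors (ENSMUSG00000025809, chromosome 8, 128685654 to 128733200, plus strand, GRCm38). Itgb1 had 900, 959 and 1314 CPM in Ctrl, 1006, 609 and 1116 CPM in EpPT1, and 600, 1129 and 1217 CPM in EpPT2. The lowest values were in EpPT1 2 and EpPT2 1 and the highest in Ctrl 3, and the groups overlapped. Per kb, Itgb1 averaged 241 CPM, Itgb5 31.4, Itgb4 24.8, Itgb7 2.09 and Itgb6 0.81. In every library Itgb1 made up 74.3% to 85.3% of the summed beta level per kb.

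Of the other beta chains, Itgb5 and Itgb4 were well expressed and the rest were low. Itgb5, a partner of αv in vitronectin binding, had 90.5, 90.3 and 106 CPM in Ctrl, 86.2, 109 and 137 CPM in EpPT1 and 104, 132 and 149 CPM in EpPT2. Itgb4, which anchors hemidesmosomes together with α6, had 94.6, 173 and 151 CPM in Ctrl, 154, 133 and 247 CPM in EpPT1 and 128, 233 and 251 CPM in EpPT2. Per kb these levels overlapped between libraries (24.3 to 41.8 CPM for Itgb5 and 13.5 to 35.8 CPM for Itgb4), so the order of the pair is not separated by their spread. Itgb6, an epithelial partner of αv that activates TGF-beta, lay between 2.85 and 10.1 CPM. Itgb3 (34 counts in all), Itgb2 (11) and Itgb8 (3) were not tested.

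The alpha chains were led by the laminin receptors Itga3 and Itga6. Itga3 (ENSMUSG00000001507, chromosome 11, 95044474 to 95076801) had 300, 404 and 333 CPM in Ctrl, 354, 406 and 531 CPM in EpPT1 and 392, 515 and 512 CPM in EpPT2. Itga6 (ENSMUSG00000027111, chromosome 2, 71745616 to 71858416) varied more, with 262, 561 and 765 CPM in Ctrl, 491, 189 and 594 CPM in EpPT1 and 189, 696 and 705 CPM in EpPT2. The lowest Itga6 values stood in EpPT1 2 and EpPT2 1, the same libraries in which Itgb1 was lowest. These 2 libraries were also close to each other over all tested genes, with a chi-square per gene of 5.66. The ratio of Itga6 to Itga3 per kb was 0.294 in EpPT1 2 and 0.304 in EpPT2 1, and 0.553 to 1.45 in the other 7 libraries. Averaged over the 9 libraries, Itga3 made up 40.3% and Itga6 27.9% of the summed alpha level per kb.

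Itga7, the third chain that pairs with β1 to bind laminin and best known from muscle, was much lower, at 3.44 CPM per kb on average against 72.9 for Itga3. Its libraries divided in another way than those of Itga6 (ENSMUSG00000025348, chromosome 10, 128933818 to 128958282). Itga7 had 16.5, 13.4 and 12.7 CPM in Ctrl, 7.56, 32.4 and 37.7 CPM in EpPT1 and 42.3, 41.5 and 46.5 CPM in EpPT2. Ctrl and EpPT1 1 were low, EpPT1 2 and EpPT1 3 were higher, and EpPT2 lay above every library of the other groups.

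Receptors for Arg-Gly-Asp proteins were present through αv and α5. Itgav had 248, 308 and 404 CPM in Ctrl, 290, 154 and 300 CPM in EpPT1 and 146, 308 and 323 CPM in EpPT2. Itga5, the fibronectin receptor chain, had 52.0, 75.4 and 117 CPM in Ctrl, 53.3, 66.8 and 142 CPM in EpPT1 and 73.8, 130 and 134 CPM in EpPT2. Within each group the highest Itga5 values came from libraries with a high mitochondrial share. Their ligand fibronectin was abundant, with 2049 to 3381 CPM of Fn1.

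Of the collagen receptor chains, Itga2 was the abundant one, with 69.7, 53.8 and 74.9 CPM in Ctrl, 47.8, 40.3 and 50.7 CPM in EpPT1 and 33.1, 56.3 and 57.7 CPM in EpPT2. The 3 EpPT1 values lay below all 3 Ctrl values. Itga10 had 2.69 to 7.07 CPM, Itga1 0.40 to 2.98 CPM and Itga11 at most 0.68 CPM. Of the exon bases of Itga10, 33.5% are shared with the overlapping gene Gm42957, which makes its level uncertain.

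Integrin chains of blood cells and platelets were at low levels, with few counts of the partners β2 and β3. Itgam, of the myeloid receptor with β2, had 3.00 to 10.7 CPM, while its partner Itgb2 had 0 to 4 counts per library. Gm49368 overlaps 68.7% of the exon bases of Itgam, so that its counts depend on how shared reads were assigned. Itga2b, of the platelet fibrinogen receptor, had 0.91 to 8.18 CPM, with 0 to 13 counts of its partner Itgb3. Itgb7 of lymphocytes had 1.86 to 9.96 CPM, Itga4 1.25 to 3.35 CPM, and Itgae, whose product binds E-cadherin, 0.60 to 1.92 CPM. Of 8 blood and immune markers, which include Itgam itself, 3 were tested. The sum of the 8 was 98.4 to 117 CPM in the 4 libraries of high mitochondrial share and 16.3 to 53.6 CPM in the other 5. The lysosomal gene Cd68, at 8.50 to 102 CPM, led it, whereas the leukocyte marker Ptprc stayed at 0.76 CPM or less and the macrophage marker Adgre1 was at 0. The platelet list, which holds Itga2b, was led by Ppbp (11.3 to 80.7 CPM), with Pf4 at 0.37 CPM or less and Gp9 at 0.08 CPM or less.

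**Figure D1:**
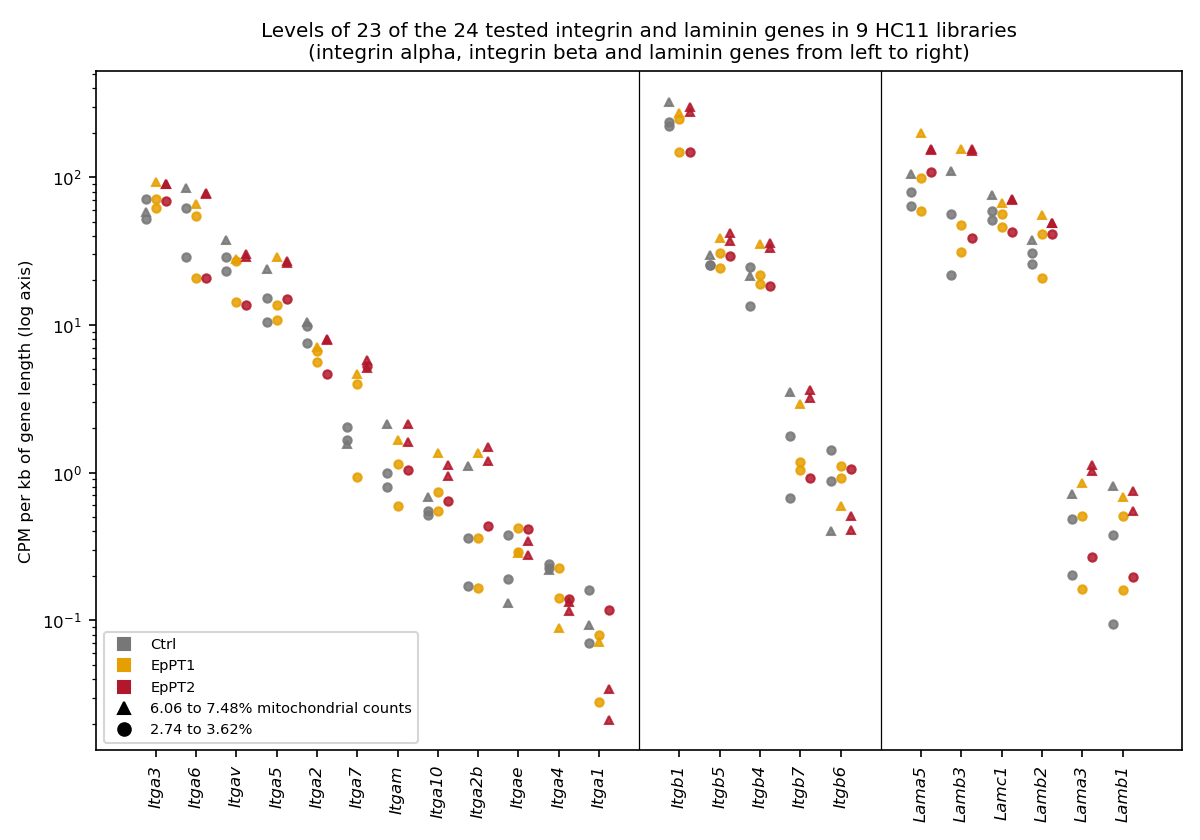
Level per kb of gene length (CPM per kb, log axis) of 23 of the 24 tested members in each of the 9 libraries, coloured by group, with triangles for the 4 libraries with 6.06% to 7.48% mitochondrial counts. Itgb1 is the highest member (241 CPM per kb on average), and triangles lie above circles for Lamb3, Itga2b, Lama3, Lamb1 and others.

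Among the laminin chains Lama5, Lamb3, Lamc1 and Lamb2 dominated. Per kb they averaged 113, 85.1, 59.9 and 39.1 CPM, ahead of Lama3 (0.59) and Lamb1 (0.46). The order of Lamb3 and Lamc1 differed between libraries, and Lamc1 was the higher per kb in the 5 libraries of low mitochondrial share. Lamc3, Lama2 and Lama4 had 19, 18 and 3 counts in all and were not tested. Lama5 encodes α5, the widespread alpha chain of epithelial basement membranes (ENSMUSG00000015647, chromosome 2, 180176373 to 180225859). It had 721, 911 and 1195 CPM in Ctrl, 677, 1128 and 2260 CPM in EpPT1 and 1227, 1740 and 1758 CPM in EpPT2. All 3 EpPT2 values exceeded all 3 Ctrl values, and EpPT1 ranged from below Ctrl to above EpPT2.

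Lamb3 encodes the β3 chain of the laminin of hemidesmosomes. Lamb3 (ENSMUSG00000026639, chromosome 1, 193207699 to 193343878) spanned a 7.14-fold range. It had 144, 375 and 727 CPM in Ctrl, 314, 207 and 1027 CPM in EpPT1 and 254, 1022 and 993 CPM in EpPT2. In each group the libraries of high mitochondrial share, Ctrl 3, EpPT1 3, EpPT2 2 and EpPT2 3, held the highest values.

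Levels of the laminin chains were far from equal. The ratio of Lamb3 to Lamb2 per kb was 2.80 to 3.14 in the 4 libraries of high mitochondrial share and 0.708 to 2.29 in the other 5. Lama3, the α3 chain that joins β3, had 1.76 to 12.1 CPM. Of the beta chains that can join α5 and γ1, Lamb2 was 40.9 to 328 times higher per kb than Lamb1 in every library. Lamc1, the γ1 chain shared by most laminins, was the steadiest of the abundant laminin chains, with 353 to 626 CPM. The ratio of Lama5 to Lamc1 per kb was 2.16 to 2.52 in EpPT2, 1.06 to 2.95 in EpPT1 and 1.24 to 1.39 in Ctrl.

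The promoters of the 3 members with the highest level per kb are printed to show the sequence before an annotated start of the most abundant receptor chain and the 2 laminin chains of highest mean level over the 9 libraries. Each sequence is the 250 bases before an annotated RefSeq start (GRCm38.p6), 5′ to 3′ on the strand of the gene, with GC boxes (GGGCGG on either strand) in capitals. The windows are chr8:128685404-128685653 on the plus strand for Itgb1, chr2:180225860-180226109 on the minus strand for Lama5 and chr1:193301744-193301993 on the plus strand for Lamb3, the first of its 2 starts in the table. The windows of Itgb1 and Lama5 adjoin the deposited gene coordinates. That of Lamb3 lies inside them, since the gene starts at 193207699 there.
Itgb1: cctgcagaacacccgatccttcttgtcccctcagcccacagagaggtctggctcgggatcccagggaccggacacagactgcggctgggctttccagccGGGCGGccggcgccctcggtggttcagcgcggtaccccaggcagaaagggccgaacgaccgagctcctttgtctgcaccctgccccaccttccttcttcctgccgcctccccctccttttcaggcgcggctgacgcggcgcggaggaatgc
Lama5: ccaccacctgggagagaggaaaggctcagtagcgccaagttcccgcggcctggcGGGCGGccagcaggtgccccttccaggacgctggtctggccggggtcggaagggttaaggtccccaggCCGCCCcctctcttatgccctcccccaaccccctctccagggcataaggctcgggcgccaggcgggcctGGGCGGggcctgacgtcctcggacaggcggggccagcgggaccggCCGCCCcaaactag
Lamb3: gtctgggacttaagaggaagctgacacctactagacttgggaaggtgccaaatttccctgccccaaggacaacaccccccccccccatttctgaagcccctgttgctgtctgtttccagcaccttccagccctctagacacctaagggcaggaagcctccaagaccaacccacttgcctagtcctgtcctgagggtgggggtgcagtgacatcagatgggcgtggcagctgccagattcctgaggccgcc
The Itgb1 window holds 1 GC box, that of Lama5 holds 4 and that of Lamb3 none, with 68.0%, 72.4% and 58.8% GC. Over all 32851 promoter windows of the table, 32.7% hold a GC box. Of the 24 tested members 17 had a window, and 8 of the 17 held a GC box, while none held the AP-1 motif TGANTCA (6.75% of all windows) or the TATA box TATAAA on either strand (12.4%). Such matches describe letters only. Itga7 and Itga6 had no entry.

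**Figure D2:**
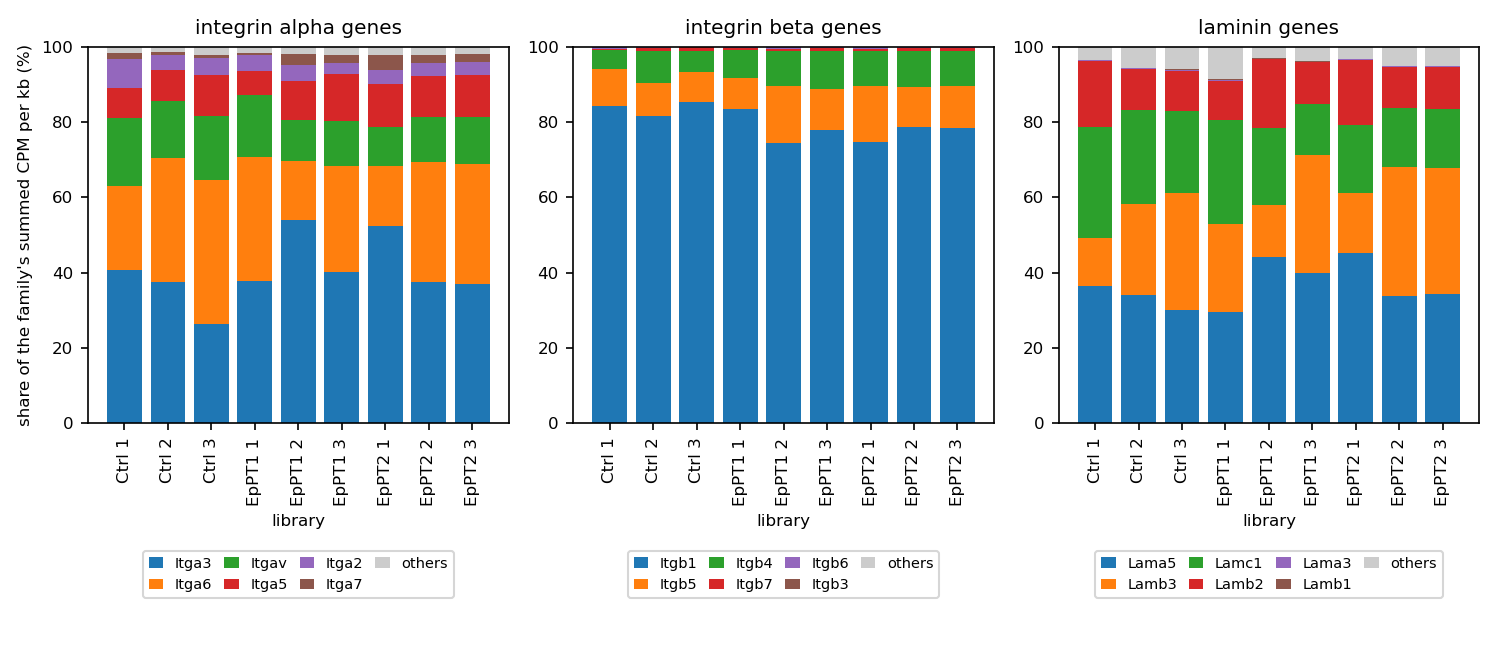
Share (%) of each family's summed CPM per kb taken by 6 of its genes in each of the 9 libraries, with all other genes in grey. Itgb1 takes 74.3% to 85.3% of the beta level in every library, while the share of Lamb3 among laminins ranges from 12.6% to 34.2%.

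The libraries were divided by mitochondrial share and by the sign of the GC slope, and of these the mitochondrial share took in more members. Mitochondrial share differed within each group. In 11 of the 24 tested members all 4 libraries of high mitochondrial share lay above all other 5, against 16.5% of the 14471 tested genes. Among these were Itga2b, Itga5, Itga6, Itgam, Itgb1, Itgb7, Lama3, Lamb1, Lamb3 and Lamc1. Only Itgb6 lay below, at 2.85 to 4.23 CPM in the 4 libraries and 6.28 to 10.1 CPM in the other 5 (18% of all genes lay below). The count was 11 to 13 without any other single library, where 17.3% to 18.6% of all genes lay above. It was 17 without Ctrl 3, where 23.6% of all genes lay above. Group sizes differ across this division, with 1 Ctrl, 1 EpPT1 and 2 EpPT2 libraries on the high side. The 9 libraries were divided after the data were seen, so these counts are a description without a test. The summed basal and blood marker levels given above divided the libraries in the same way. So did the luminal sum, by a narrow margin, at 2691.5 to 2941 CPM in the 4 libraries and 1761 to 2660 CPM in the other 5. Single markers of a list did not all do so. Of the luminal markers only Epcam lay above, at 38.0 to 44.8 CPM against 17.7 to 34.6 CPM, while the abundant Krt18 and Krt8 overlapped. Of the blood list Cd68 and Itgam lay above, Csf1r overlapped, and Lyz2, at 0.81 CPM or less, lay below. The part of these markers in the members' levels was not tested.

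**Figure D3:**
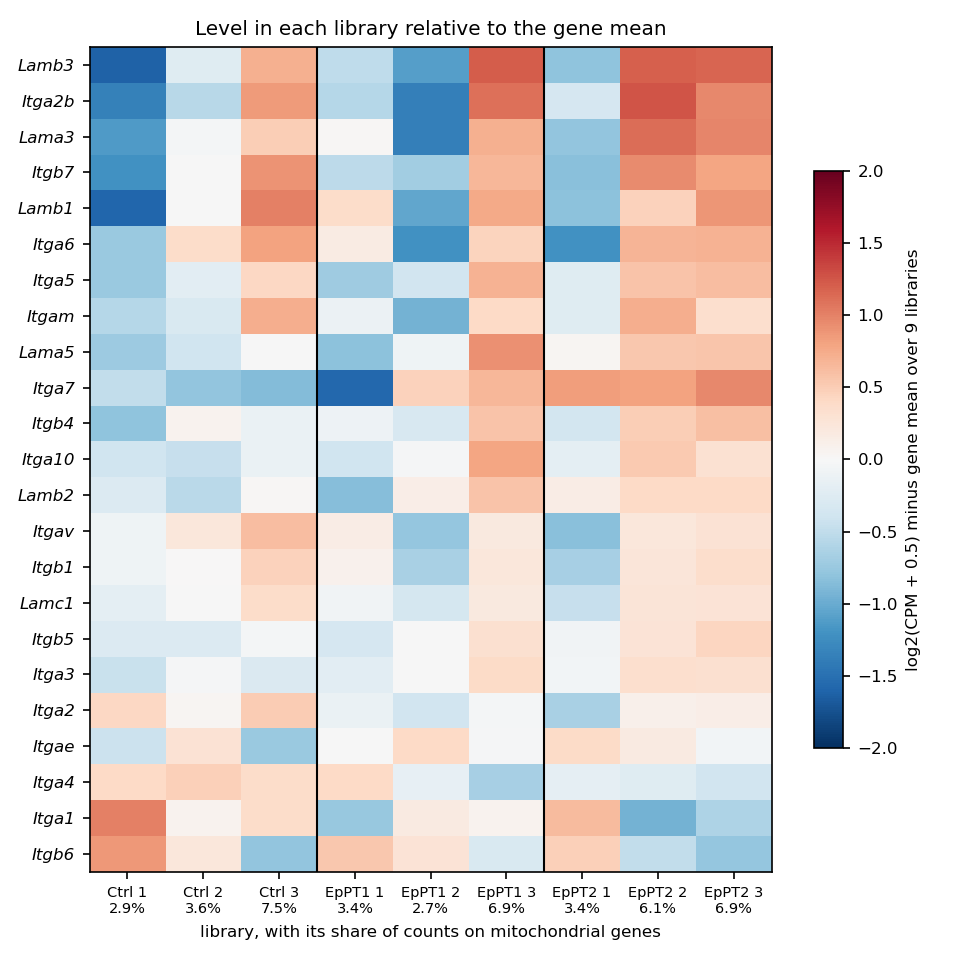
Level of 23 tested members in each library, as log2(CPM + 0.5) minus the gene's mean over the 9 libraries, with genes ordered by the difference between libraries of high and low mitochondrial share, printed under each library. Lamb3 and Itga2b at the top are high in Ctrl 3, EpPT1 3, EpPT2 2 and EpPT2 3, and Itgb6 at the bottom is low there, while Itga7 is low in Ctrl and EpPT1 1.

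EpPT1 against Ctrl asks what the exposure of lower labelled fluence did to these genes. No member passed the test, and 14 of the 24 tested had a positive and 10 a negative log2 fold change, against 48% and 52% of all genes. The lowest p belonged to Itga2, the collagen receptor chain, at 46.3 ± 5.41 CPM in EpPT1 and 66.1 ± 11 CPM in Ctrl (mean ± SD, n = 3 each), a log2 fold change of −0.52 (SE 0.26). Itga2 was the only member whose groups did not overlap, and 2.53% of all tested genes lay below in the same way, while 0 members lay above, as did 2.73% of all genes. Itga7 averaged 25.9 ± 16.1 CPM in EpPT1 and 14.2 ± 2.03 CPM in Ctrl, a log2 fold change of 0.87 (SE 0.47). Its difference was 1.30 without EpPT1 1 and 0.50 without EpPT1 3.

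Itga10, another collagen receptor chain, gave 0.60 (SE 0.42) in EpPT1 against Ctrl, and the lymphocyte chain Itga4 −0.58 (SE 0.42). In edgeR's quasi-likelihood test with Benjamini-Hochberg adjustment the members' adjusted p ran from 0.991, the lowest of any gene in this comparison, to 0.998, and 0 of 24 members had an unadjusted p under 0.05, against 3.93% of all genes (3.01% higher and 0.919% lower). At an adjusted p under 0.05 edgeR called 0% of all genes. DESeq2 and limma-voom also called 0 members and had 0 members at an unadjusted p under 0.05. The members' median log2 fold change was 0.11, beside −0.02 for all tested genes, and it became −0.24 without Ctrl 1, −0.34 without EpPT1 3, 0.37 without Ctrl 3 and −0.13 once each library was corrected for its trend on GC content. As a difference of mean log2 levels, with no test, Itga2 gave −0.48 and Itga7 0.08 among the 4 EpPT1 and Ctrl libraries of low mitochondrial share, and −0.56 and 1.56 between EpPT1 3 and Ctrl 3.

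EpPT2 against Ctrl, the exposure of higher labelled fluence, gave the largest difference among the members, in the laminin receptor chain Itga7. Itga7 averaged 43.5 ± 2.69 CPM in EpPT2 and 14.2 ± 2.03 CPM in Ctrl (mean ± SD, n = 3 each), a log2 fold change of 1.61 (SE 0.47), higher in 3 of 3 libraries. The adjusted p from edgeR's quasi-likelihood test was 0.376, so it did not pass, with an unadjusted p of 0.0064. It did pass in edgeR without the filter on low counts (log2 fold change 1.62, adjusted p = 0.0035), which was the only member call of this comparison in any setting, and over all settings its adjusted p ranged from 0.0035 to 0.919. As a difference of mean log2 levels, with no test, it was 1.78 among the 3 EpPT2 and Ctrl libraries of high mitochondrial share and 1.5 among the 3 of low share. Corrected for the GC trend of each library it was 0.97 (SE 0.37, adjusted p = 0.798).

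The EpPT2 libraries also lay above Ctrl for a pair of laminin chains, though neither passed the test. Lama5 averaged 1575 ± 301 CPM in EpPT2 and 942 ± 239 CPM in Ctrl, a log2 fold change of 0.74 (SE 0.40, edgeR adjusted p = 0.452). Lamb2, the β2 chain, averaged 284 ± 27.2 CPM in EpPT2 and 191 ± 37.0 CPM in Ctrl, or 0.57 (SE 0.33). With Itga7 these were the 3 members of 24 (12.5%) whose EpPT2 libraries all lay above Ctrl, a share near the 12.3% of all tested genes. After the GC trend was removed, Lama5 gave −0.04 and Lamb2 −0.14, both of the opposite sign.

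Among the other abundant receptors, Itga3 averaged 473 ± 70.0 CPM in EpPT2 and 346 ± 53.2 CPM in Ctrl, a log2 fold change of 0.45 (SE 0.23, edgeR adjusted p = 0.437) that became −0.18 after the GC trend was removed. Itgb5 gave 0.42 (SE 0.23) and Itgb4 0.55 (SE 0.34), and after the same correction −0.14 and −0.25. Itga6 (0.00, SE 0.57), Lamc1 (−0.01, SE 0.27) and Itgb1 (−0.11, SE 0.32) had values near 0 with wide intervals: 2 SE to either side ran from −1.13 to 1.14 for Itga6, −0.54 to 0.52 for Lamc1 and −0.75 to 0.54 for Itgb1. Itga4 was lower, at 1.81 ± 0.17 CPM in EpPT2 and 3.2 ± 0.14 CPM in Ctrl, a log2 fold change of −0.82 (SE 0.42, edgeR adjusted p = 0.441), and was the only member whose groups did not overlap downward, against 10.9% of all genes. Its counts were 23 to 32 per EpPT2 library and 41 to 56 per Ctrl library, and 8.04% of its exon bases overlap Cerkl on the other strand.

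Over all members in EpPT2 against Ctrl, edgeR called 0 of 24 at an adjusted p under 0.05 (lowest 0.376), as it called 0% of all genes. At an unadjusted p under 0.05 there was 1 of 24 members, Itga7, against 12.2% of all genes (6.88% higher and 5.31% lower), and the same single member in DESeq2 (adjusted p = 0.0853) and limma-voom (adjusted p = 0.390). Positive log2 fold changes were found in 17 of 24 members, against 47.9% of all genes, and negative ones in 7 of 24, against 52.1%, with a median of 0.42 beside −0.03 for all tested genes. That median was 0.15 without Ctrl 1, 0.27 without EpPT2 2 and 0.67 without Ctrl 3. Within the 5 libraries of low mitochondrial share, where EpPT2 1 is the only EpPT2 library, the median was −0.03. After the GC trend was removed it was −0.02.

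**Figure D4:**
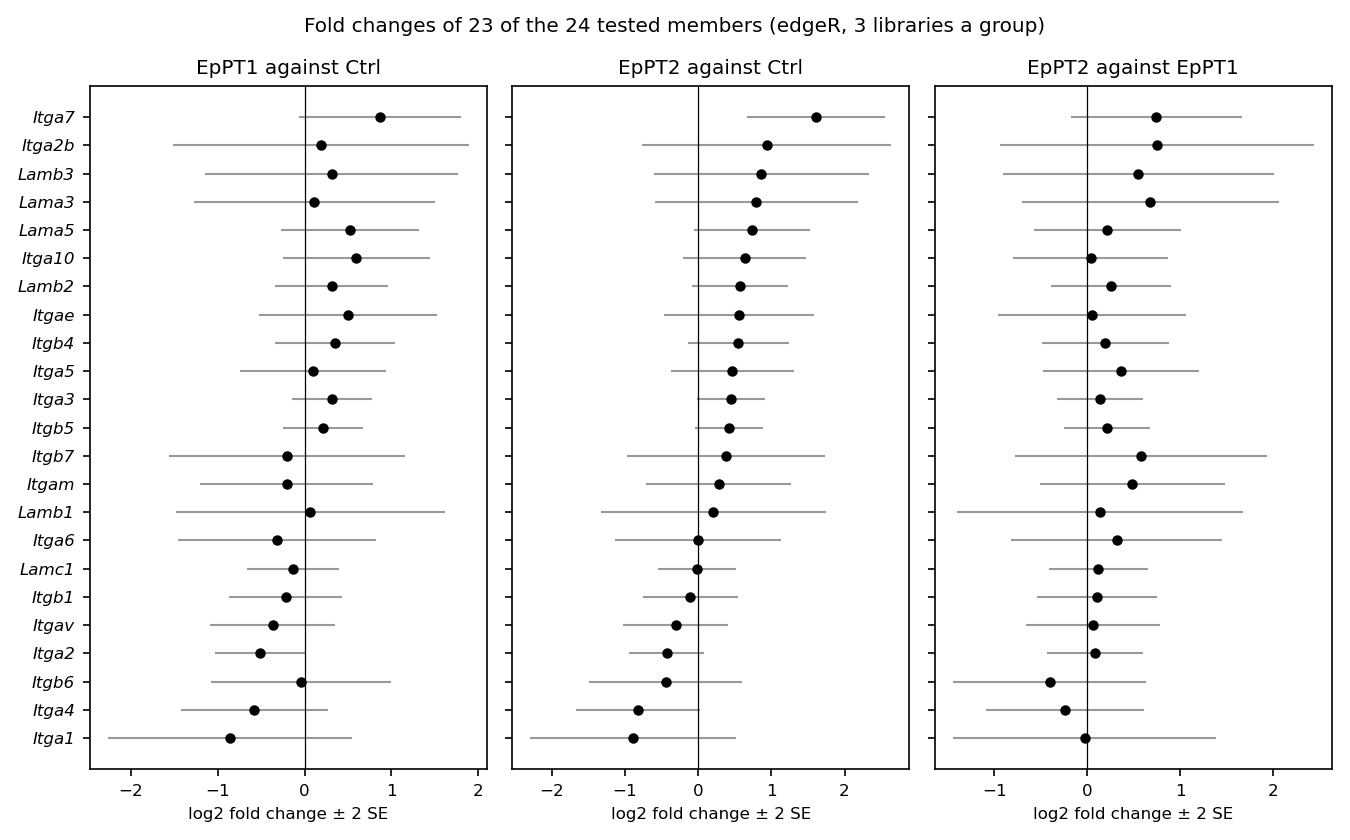
Log2 fold changes (points) with 2 standard errors on either side (bars) of 23 of the 24 tested members in the 3 comparisons, ordered by EpPT2 against Ctrl. Itga7 in EpPT2 against Ctrl (1.61) is the only point whose bar stays clear of 0.

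EpPT2 against EpPT1 compares the exposures with each other. No member passed, and 21 of 24 had a positive log2 fold change, against 48.3% of all genes, and 3 a negative one, against 51.7%, with a median of 0.21 beside −0.01 for all tested genes. Itga7 had the lowest p, at 43.5 ± 2.69 CPM in EpPT2 and 25.9 ± 16.1 CPM in EpPT1, and its log2 fold change was 0.75 (SE 0.46). It was the only member whose groups did not overlap, against 1.26% of all genes lying above and 1.2% below. Itgam gave 0.49 (SE 0.50), Lama3 0.68 (SE 0.69) and Itgb5 0.21 (SE 0.23). In edgeR on the 5 libraries of low mitochondrial share, where EpPT2 1 is the only EpPT2 library, Lama3 gave −0.31. As a difference of mean log2 levels among the same libraries, with no test, it was −0.11.

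In edgeR's quasi-likelihood test every member had an adjusted p of 1.00 in EpPT2 against EpPT1, 0 of 24 had an unadjusted p under 0.05 against 0.214% of all genes (0.0691% higher and 0.145% lower), and 0% of all genes were called. DESeq2 and limma-voom gave 0 members at either threshold. EpPT2 has 2 libraries of high mitochondrial share and EpPT1 has 1. The median was 0.52 without EpPT1 3, 0.36 without EpPT2 1, 0.10 without EpPT1 2, 0.09 without EpPT2 2 or EpPT2 3 and 0.04 with the mitochondrial share as a covariate, which left 14 of 24 positive. A test for a difference in any of the 3 groups called 0 members and 0% of all genes, with Itga7 lowest at an unadjusted p of 0.020 (edgeR adjusted p = 0.911).

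**Figure D5:**
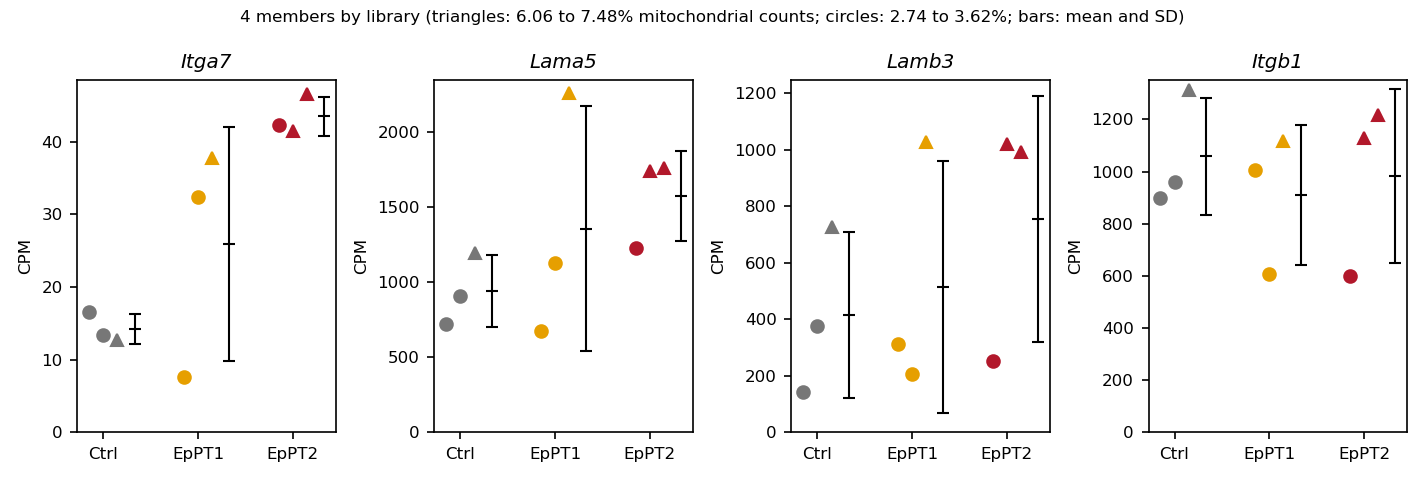
CPM of Itga7, Lama5, Lamb3 and Itgb1 in each library by group, with the mean and SD of 3 libraries as bars and triangles for libraries with 6.06% to 7.48% mitochondrial counts. Itga7 is 41.5 to 46.5 CPM in EpPT2 and 12.7 to 16.5 CPM in Ctrl, whereas Lamb3 and Itgb1 are highest at the triangles of each group.

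Members rich in GC tended to have the higher fold changes, as did genes at large. Across the 24 members Spearman's rho between GC content and log2 fold change was 0.75 for EpPT1 against Ctrl, 0.76 for EpPT2 against Ctrl and 0.57 for EpPT2 against EpPT1, beside 0.60, 0.62 and 0.35 across 14458 genes. Genes share their libraries, so these values describe the libraries and are not independent replicates. Member GC content ran from 41.1% in Itga4 to 60.0% in Itgb4, with 57.8% in Itga7 and 59.9% in Lama5. In Itga7 and Lamb2 the 5 libraries with a positive GC slope all lay above the other 4 (9.83% of all genes did), and Itga4 lay below (8%). The part of GC content in these differences was not tested beyond the correction.

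Partners of the members gave 0 calls as well. The values of all partner lists below are without the correction for the GC trend. In EpPT2 against Ctrl the GC slope and the group cannot be told apart, and the part of GC content in the partners' differences was not tested. Of the 9 hemidesmosome and laminin receptor genes 8 were tested, and 2 of the 8 had an unadjusted p under 0.05 in EpPT2 against Ctrl, both higher, beside 6.88% of all genes. Bcam, a receptor for the laminin α5 chain, had 701 ± 36.4 CPM in EpPT2 and 312 ± 28.3 CPM in Ctrl (log2 fold change 1.17, SE 0.32, edgeR adjusted p = 0.376). The tetraspanin Cd151, which binds laminin-receptor integrins, had 177 ± 47.6 CPM in EpPT2 and 104 ± 18.7 CPM in Ctrl (0.76, SE 0.30). Plec and Dst, which link hemidesmosomes to keratin, were abundant (171 to 813 and 359 to 1266 CPM), while the hemidesmosomal collagen Col17a1 had at most 0.40 CPM. Rpsa, a ribosomal protein also described as a laminin receptor, was the highest of the list and gave −0.14 (SE 0.22), and Dst gave 0.16 (SE 0.54). The median of the 8 was 0.46 in EpPT2 against Ctrl and 0.21 in EpPT1 against Ctrl.

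Basement membrane partners of laminin had 10 of 20 genes tested, with a median of 0.72 in EpPT2 against Ctrl and 0.35 in EpPT1 against Ctrl. Agrn, a laminin-binding proteoglycan, had 719 ± 170 CPM in EpPT2 and 388 ± 55.3 CPM in Ctrl (log2 fold change 0.89, SE 0.37) and was the only one at an unadjusted p under 0.05 (6.88% of all genes were higher at that p). Hspg2, which encodes perlecan, gave 0.76 (SE 0.45), the collagen IV gene Col4a1 0.69 (SE 0.39) and Col18a1 1.10 (SE 0.52). The collagen IV gene Col4a3 gave −1.04 (SE 0.53) in EpPT1 against Ctrl and 0.63 (SE 0.54) in EpPT2 against EpPT1, where Col4a2 gave 0.59 (SE 0.49). Nid1, the linker between laminin and collagen IV, had 87.2 to 209 CPM, whereas Nid2 reached 1.04 CPM at most.

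Inside the cell, 38 of 42 focal adhesion genes were tested. Their median was 0.06 in EpPT2 against Ctrl, with 3 of 38 at an unadjusted p under 0.05, all higher, a share near the 6.88% of all genes. Zyx, a LIM protein of focal adhesions, had 135 ± 14.4 CPM in EpPT2 and 63.9 ± 13.1 CPM in Ctrl (log2 fold change 1.08, SE 0.29), and the kinase gene Src had 144 ± 9.08 CPM in EpPT2 and 83.7 ± 17.2 CPM in Ctrl (0.78, SE 0.28). The third was Vasp, of actin filament assembly (0.98). The most abundant genes of the list, Flna (0.42, SE 0.22), Tln1 (0.37, SE 0.37) and Actn4 (0.04, SE 0.19), had smaller differences. In EpPT1 against Ctrl, Zyx gave 0.71 (SE 0.29) and the median of the list was 0.08. In EpPT2 against EpPT1, Zyx gave 0.37 (SE 0.28) and the adaptor gene Crk −0.22 (SE 0.18).

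Of 31 listed symbols of other integrin ligands, 28 were in the count table and 20 were tested. The median of the 20 was 0.43 in EpPT2 against Ctrl and −0.03 in EpPT1 against Ctrl. In EpPT2 against Ctrl 4 of the 20 had an unadjusted p under 0.05, all higher, beside 6.88% of all genes. Adam15, a metalloproteinase with an integrin-binding domain, had 214 ± 57.1 CPM in EpPT2 and 97.1 ± 20.7 CPM in Ctrl (log2 fold change 1.14, SE 0.38). Tgfb1, whose latent form binds αv integrins, had 84.9 ± 10.7 CPM in EpPT2 and 53.6 ± 14.3 CPM in Ctrl (0.66, SE 0.27). The others were Mfge8, an αv ligand (1.27), and Icam1, a β2 integrin ligand (0.58). Fn1 gave 0.34 (SE 0.23), Ctgf, a matricellular protein, 0.39 (SE 0.63) and Thbs1 −0.26 (SE 0.42). Npnt, a ligand of α8β1, gave 0.52 (SE 0.41) in EpPT2 against EpPT1. Of 16 tested trafficking and tetraspanin genes the median in EpPT2 against Ctrl was −0.07. There the tetraspanin gene Cd81 gave 0.84 (SE 0.35) and the chloride channel family gene Clic4 −0.58 (SE 0.24). Only these had an unadjusted p under 0.05 (6.88% of all genes were higher and 5.31% lower). In the same comparison the most abundant of the 16 were the tetraspanin genes Cd63 (0.71, SE 0.33) and Cd9 (0.11, SE 0.50) and Slc3a2, which encodes the CD98 heavy chain (0.85, SE 0.54). In EpPT1 against Ctrl the endocytic adaptor gene Sh3kbp1 gave −0.43 (SE 0.27) and Rab11a, of recycling endosomes, −0.29 (SE 0.20). None of the genes in these 5 lists passed edgeR's test in any of the 3 comparisons, where the lowest adjusted p was 0.376 in EpPT2 against Ctrl and 0.991 in EpPT1 against Ctrl.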

How the data were processed

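RNA of 9 HC11 libraries was measured by RNA sequencing, and the values are counts per gene that the authors deposited in 1 table, with gene names, coordinates and a gene length (the deposited length column, in bases). The tool Bowtie (version 0.12.2) and the build mm8 are listed, with no role, per the submitters' processing notes. Gene coordinates equal those of GENCODE M21 on GRCm38 for 98.3% of the 54495 IDs found there and for all 37 members. The counter and its strand setting were not given in the sources used here, so overlapping genes may share reads.

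Counts were fitted in edgeR 4.0.16 (R 4.3.3) with TMM scaling, filterByExpr and the quasi-likelihood test on all 9 libraries, with Benjamini-Hochberg adjustment over 14471 genes and a threshold of 0.05. DESeq2 1.42.0, limma-voom 3.58.1, other filters and scalings, a replicate block, the removal of a GC trend, a mitochondrial covariate and leaving out each library were alternatives. Scripts were tested on simulated data. GC content came from the longest transcript of each gene.

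The members and lists were chosen with earlier results of these data known, and 1 member is tested and counted but not reported here. Every other member is accounted for, with tests for the 4 lowest p in each comparison, and of each list the 3 genes of highest level and the 2 of lowest p are named. Other members' tests, and Vasp, Mfge8, Icam1, Cdh1, Plec, Nid1, Nid2, Col17a1 and Ilk, were chosen after their values were seen.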

Additional observations from a re-analysis of the deposited data

How the results depend on the processing

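Over all members tested and all alternatives, 163 of 1428 log2 fold changes had another sign than in the main analysis, 44 of 476 of them in EpPT2 against Ctrl. Of 496 values of the counts and of the members with the 4 lowest p in each comparison, 437 kept their direction and call, 52 moved, 6 reversed and 1 gained a call. When every gene with a count was tested, edgeR called 32 in EpPT1 against Ctrl, 268 in EpPT2 against Ctrl and 2 in EpPT2 against EpPT1, and 1 member, Itga7, in EpPT2 against Ctrl and in the test of any group. DESeq2 called 1 gene in EpPT1 against Ctrl and 62 in EpPT2 against Ctrl, none a member. Leaving out 1 library gave 0 to 2 called genes in EpPT2 against Ctrl, with 2 without EpPT1 1, and 0 called members in every comparison. With the GC trend removed, EpPT2 against Ctrl turned to −0.18 for Itga3 and −0.037 for Lama5, and with the mitochondrial covariate added to −0.16 and −0.12, while Itgb5 in EpPT2 against EpPT1 turned to −0.00036. In the 5 libraries under 5% mitochondrial counts, where EpPT2 1 is the only EpPT2 library, Lama3 in EpPT2 against EpPT1 turned to −0.31. These last 2 settings were chosen after seeing the data, and the cause was not tested. At an unadjusted p under 0.05, EpPT2 against Ctrl held 1763 genes, against 590 in the 5 libraries and 3533 with the mitochondrial covariate, EpPT1 against Ctrl 568 (186 to 1980) and EpPT2 against EpPT1 31 (11 to 709). As deviations from the group mean, same-numbered libraries correlated at 0.15, 0.06 and 0.73 between EpPT1 and Ctrl. The values were 0.73, −0.16 and 0.63 between EpPT2 and Ctrl, and 0.19, −0.64 and 0.64 between EpPT2 and EpPT1. Libraries of unlike number also correlated, as EpPT1 2 with Ctrl 1 (0.65) and EpPT2 1 with EpPT1 2 (0.75). The deviations of a group sum to 0, so this check cannot decide whether library numbers pair the samples. With the replicate block 0 members were called, Itga7 gave 1.58 in EpPT2 against Ctrl (edgeR adjusted p = 0.105), and 4 members had an unadjusted p under 0.05 there.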

Other observations

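Ilk encodes integrin-linked kinase, which binds the products of Lims1 and Parva at focal adhesions. It had 0.06, 0.36 and 0.45 CPM in Ctrl, 0, 2.15 and 1.59 CPM in EpPT1, and 1.28, 1.39 and 1.34 CPM in EpPT2, or 0 to 38 counts per library, while Lims1 had 101 to 183 CPM and Parva 116 to 181 CPM. The 5 higher libraries are those with a positive GC slope, which also held the higher Itga7 values. Of the exon bases of Ilk, 76.8% overlap Taf10 on the other strand, which had 11952 counts, so its level depends on how overlapping reads were counted, which was not tested. Ilk was singled out after its values were seen.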
